A study of Mus musculus with 4 samples.

Results

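Histone genes were examined in the mouse pancreatic beta cell line Beta-TC-6 after depletion of NF45 by RNA interference. The genes were chosen by symbol among probe sets that carry exactly 1 gene symbol, taking linker histones (H1f), core histones of the replication clusters (H2ac, H2bc, H3c, H4c and their older Hist names), H2az and the H3f family, and leaving out pseudogenes. The rule found 31 genes on 32 probe sets, of 22180 genes with a single-symbol probe set in all. These were 8 linker genes, 6 H2A genes, 8 H2B genes, 7 H4 genes and 2 replication-independent variants, H2az1 and H2az2. It found 0 H3 genes, because every H3 probe set in the annotation carries several symbols, and those are described separately as shared probe sets.

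In the siNF45 group, 2 samples received a mixture of siRNA duplexes directed at NF45, and in the siNTC group 2 samples received a negative control siRNA. Both groups were the same cell line, grown in DMEM with 25 mM glucose, 15% serum and penicillin-streptomycin, and both received a lipid transfection reagent. Total RNA of each sample was measured on 1 Affymetrix Mouse Gene 2.1 ST array. One transformed line was used, with no rescue and 1 kind of control in the labels. Separate transfections within a group are not stated, and the p-values therefore rest on a spread between samples that may be technical.

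Core histones H2A, H2B, H3 and H4 form the octamer around which DNA is wound, and linker histone H1 binds where the DNA enters and leaves it. Most of their genes lie in clusters, are transcribed in S phase and make mRNAs that end in a stem-loop in place of a poly(A) tail, while variant histones are made outside S phase from ordinary polyadenylated mRNAs. NF45, encoded by Ilf2, pairs with NF90 in a complex that binds double-stranded RNA. In bulk RNA, fewer cells in S phase and less histone RNA per cell cannot be told apart.

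Values are on the log2 scale as the authors deposited them, differences are siNF45 minus siNTC, and each group value is a mean ± SD over 2 arrays. Ilf2 read 3.67 and 3.77 on the siNF45 arrays, against 5.79 and 5.98 on the siNTC arrays, and fell by 2.17 on the log2 scale (SE 0.13, limma adjusted p = 0.020). The exact permutation p for Ilf2 was 0.333, the smallest that 2 arrays against 2 can give. The signal level is the median of all probe sets, 1.65, and a gene was tested when its mean over the 4 arrays reached that level, which left 11742 genes. All 7 measured beta cell markers were past it, from 5.54 for Mafa to 10.1 for Iapp as means over the 4 arrays, with differences between -0.05 and 0.18. Of 4 hormone markers of other islet cells, 3 reached it, and their differences did not run one way. Sst read 8.18 and 8.07 in siNF45, against 9.19 and 8.83 in siNTC (difference -0.89, limma adjusted p = 0.103). Ppy read 3.13 and 2.62 in siNF45, against 2.18 and 2.54 in siNTC (difference 0.52, limma adjusted p = 0.307), and Gcg differed by -0.02. Of 10 exocrine, duct, endothelial, immune and mesenchymal markers, Cd68 alone reached it, at 1.82. The tested genes had a median difference of -0.07, and 61.3% of them lay below 0. Centring each array on the tested genes adds 0.13 to every difference, which moves their median to 0.07.

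Of the 31 histone genes, 19 were tested, and of these 2 fell after NF45 depletion, H2bc12 and H2ac1, and 0 rose. Over all tested genes, 0.0766% were called lower and 0.00852% higher at a limma adjusted p under 0.05, that is 9 lower and 1 higher; after centring these were 101 and 71, and after quantile normalization 44 and 18, with both histone genes called in each. The signal level was reached by 19 of the 31 genes, and the 12 others (H1f6, H1f7, H1f8, H2ac12, H2ac15, H2bc1, H2bc9, H2bc21, H2bc22, H4c2, H4c8 and H4c17) read between 0.94 and 1.60 as means over the 4 arrays. The gene just inside the level was H4c1 at 1.78 and the one just outside was H2bc21 at 1.60. H4c14 reached it through its siNTC arrays, with 1.64 ± 0.24 in siNF45 and 1.98 ± 0.21 in siNTC (SD, n = 2 each). Over all 31 genes, in a fit without the level, 1 passed, H2bc12, where 0.0361% of all genes were called lower, and the median difference was -0.05, with 17 genes below 0 and 14 above. All genes in that fit had a median of -0.005. At an unadjusted p under 0.05 in that fit, 6 histone genes were lower, where 8.27% of all genes were, and 1 was higher, where 4.22% were. Among the 19 tested genes, 5 were lower and 0 higher at that threshold, where 13.2% of tested genes were lower and 4.02% higher. Both siNF45 arrays read below both siNTC arrays for 12 of the 31 genes, where 22.7% of all genes did so, and above them for 4, where 19.2% did. Among the 12 genes under the level, 9 had differences above 0 and 3 had differences below it (median 0.11). Of all genes in the fit without the level, 50.3% lay below 0, against 61.3% of the tested genes. Genes under the level thus lay below 0 less often in general.

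**Figure D1:**
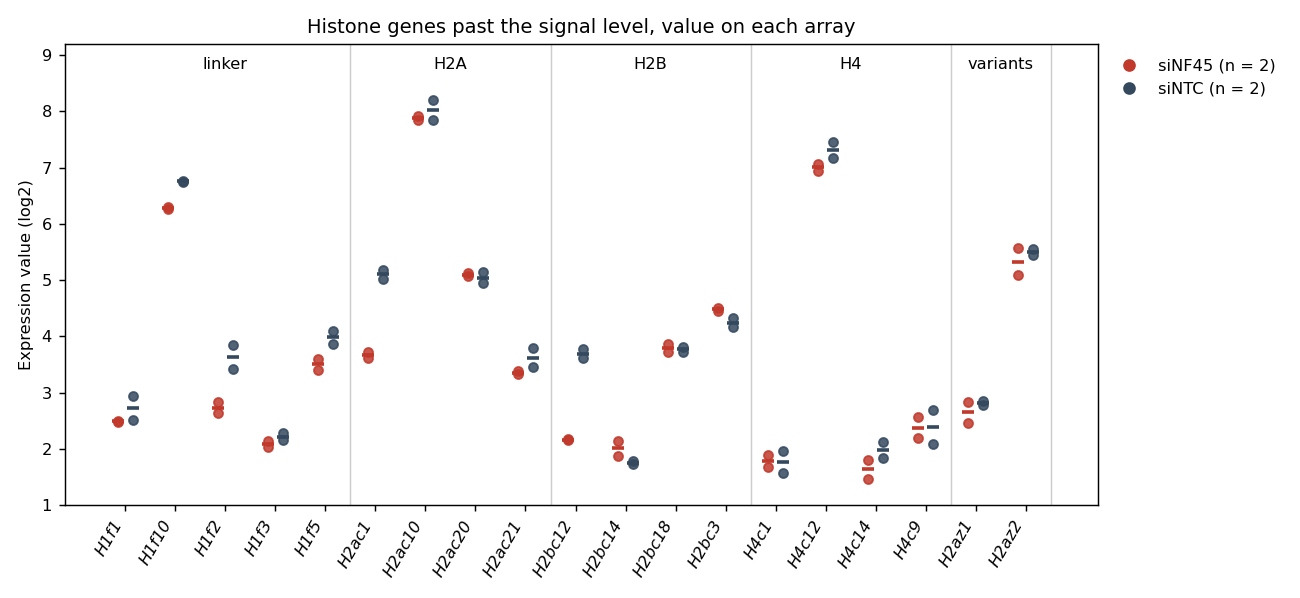
Deposited log2 value of each array (points) and group mean (bars) for the 19 histone genes past the signal level, siNF45 in red left of siNTC in dark blue, ordered by class. The siNF45 points of H2bc12, near 2.17, and of H2ac1, 3.61 and 3.72, stand well under their siNTC points.

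The 5 linker histone genes past the signal level all lay below 0, where 61.3% of all tested genes did, but none passed the test. All 5 stayed below 0 after quantile normalization and after centring, where 52.9% and 39.5% of all tested genes lay below 0. After centring, H1f3 was at -0.005 (SE 0.15) and H1f1 at -0.11 (SE 0.16). H1f2, a replication-dependent linker histone of somatic cells, read 2.83 and 2.64 on the siNF45 arrays, against 3.42 and 3.84 on the siNTC arrays. The groups did not overlap, and the difference was -0.90 (SE 0.18, 95% interval -1.34 to -0.45, limma adjusted p = 0.127), which did not pass. H1f5, of the same kind, read 3.41 and 3.60 in siNF45, against 3.87 and 4.10 in siNTC, a difference of -0.48 (SE 0.15, limma adjusted p = 0.204). H1f10, which encodes the replication-independent linker histone H1X, read 6.30 and 6.27 in siNF45, against 6.77 and 6.74 in siNTC. The replicates of each group lay close together, and the difference was -0.47 (SE 0.12, limma adjusted p = 0.150). H1f1 and H1f3, both replication-dependent, differed by -0.24 (95% interval -0.66 to 0.18) and -0.14 (-0.44 to 0.17). Leaving out siNTC replicate 1 or siNTC replicate 2 put H1f1 at -0.03 or -0.45. H1f3 was at -0.08 without siNF45 replicate 1 and -0.075 without siNTC replicate 2. In all, 5 of 5 tested linker genes had both siNF45 arrays below both siNTC arrays, where 32.6% of tested genes did so. Of the 5, 3 were lower at an unadjusted p under 0.05, where 13.2% of tested genes were lower, and 0 passed after adjustment. The 4 replication-dependent somatic genes found, H1f1, H1f2, H1f3 and H1f5, had a median difference of -0.36. H1f4 and the replication-independent H1f0 were not among the genes found by the symbol rule. The germ cell linker genes H1f6, H1f7 and H1f8, known from testis and oocyte, stayed under the level on both groups' means, between 1.06 and 1.36 over the 4 arrays, and differed by -0.05 to 0.13.

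The H2A genes were led by H2ac1. H2ac1, also named Th2a, encodes an H2A known from male germ cells. It read 3.72 and 3.61 on the siNF45 arrays, against 5.03 and 5.19 on the siNTC arrays, so that the groups lay far apart compared with their replicates. It fell 2.72-fold, to 3.67 ± 0.08 in siNF45 against 5.11 ± 0.11 in siNTC (SD, n = 2 each), a difference of -1.45 (SE 0.13, limma adjusted p = 0.0498), and had the 13th lowest difference of the tested genes. The call was lost without the signal level (limma adjusted p = 0.052). With 1 array left out, the difference ran from -1.53 to -1.37. The other tested H2A genes, which encode replication-dependent H2A, did not pass. H2ac21 read 3.38 and 3.33 in siNF45, against 3.45 and 3.80 in siNTC (difference -0.27, SE 0.16; -0.445 without siNTC replicate 1 and -0.095 without siNTC replicate 2), while its second probe set, under the level, differed by 0.01. H2ac10 read 7.84 and 7.92 in siNF45, against 8.21 and 7.84 in siNTC, and H2ac20 read 5.08 and 5.12, against 4.95 and 5.14. The groups overlapped for both, with differences of -0.15 (95% interval -0.54 to 0.25) and 0.06 (-0.26 to 0.37), and without siNTC replicate 1 each turned sign. H2ac12 and H2ac15 were under the level, at 0.10 and 0.04.

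The H2B genes held the histone gene with the lowest difference and also those with the highest among the tested ones. H2bc12, a replication-dependent H2B gene, read 2.17 and 2.16 on the siNF45 arrays, against 3.61 and 3.78 on the siNTC arrays. It fell 2.89-fold, to 2.17 ± 0.0071 in siNF45 against 3.70 ± 0.12 in siNTC (SD, n = 2 each), a difference of -1.53 (SE 0.13, 95% interval -1.84 to -1.22, limma adjusted p = 0.038), the 10th lowest of the tested genes. With any 1 array left out, the difference ran from -1.62 to -1.45. The other 3 tested H2B genes had differences above 0, and none passed. H2bc3 read 4.46 and 4.51 in siNF45, against 4.17 and 4.32 in siNTC, and H2bc14 read 1.87 and 2.15, against 1.78 and 1.73. Neither pair of groups overlapped, but the differences of 0.24 (SE 0.12, limma adjusted p = 0.389) and 0.26 (SE 0.14, limma adjusted p = 0.421) did not pass, and 15.2% of tested genes had both siNF45 arrays above both siNTC arrays. H2bc14 was at 0.115 without siNF45 replicate 2 and 0.395 without siNF45 replicate 1. H2bc18 read 3.73 and 3.87 in siNF45, against 3.72 and 3.82 in siNTC (difference 0.03, 95% interval -0.28 to 0.34). Under the level, H2bc9, H2bc21 and H2bc1 differed by 0.27, 0.21 and 0.20 and H2bc22 by -0.27. The median over all 8 H2B genes was 0.20, and over the 4 tested ones 0.14.

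**Figure D2:**
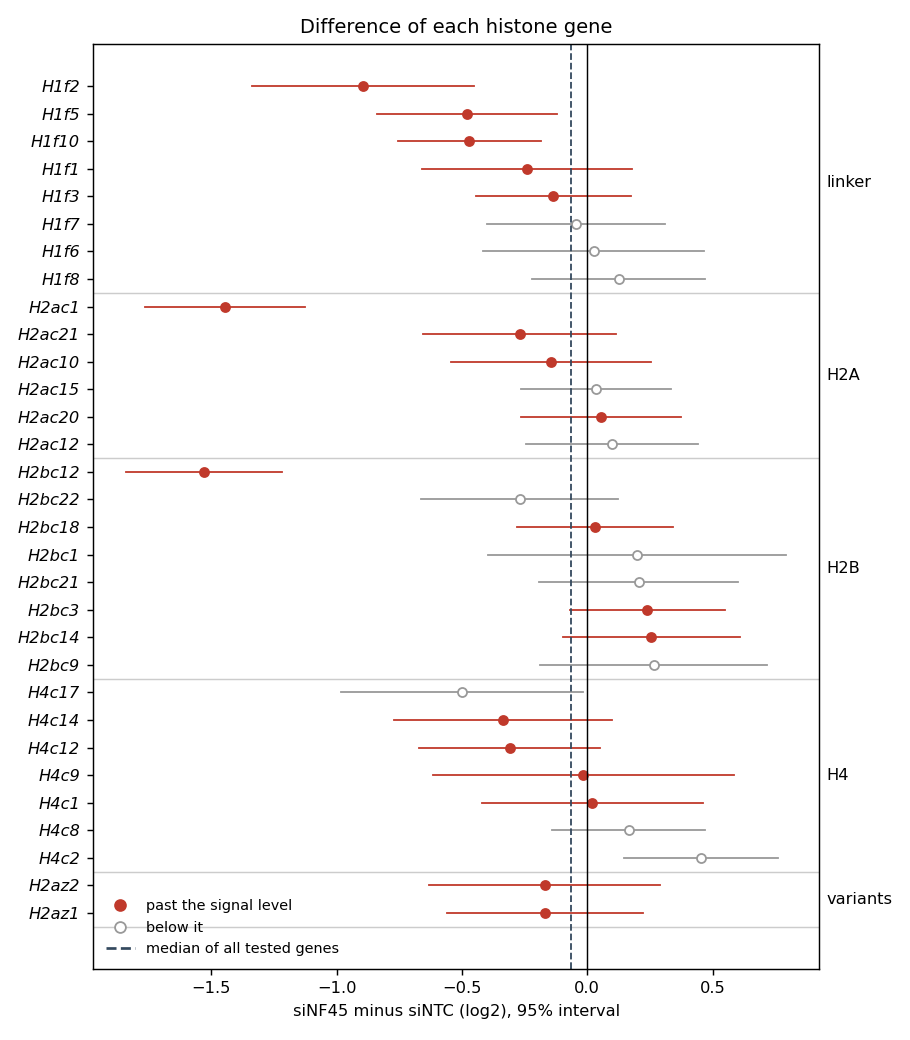
Difference siNF45 minus siNTC (log2) with its 95% limma interval for each of the 31 histone genes, by class; filled points are genes past the signal level, open points are genes below it with the interval of the fit without that level, and the dashed line is the median of all tested genes. H2bc12 and H2ac1 lie near -1.5, H1f2 at -0.90, and most others overlap 0.

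Promoter windows are shown for the 2 called genes, for H1f2 and for H2bc3, an H2B gene whose value was higher. RefSeq windows (GRCm38.p6), running from 250 bases before to 50 bases after the annotated start, were found for 29 of the 31 genes. Capitals mark matches, on either strand, to the TATA box written TATAAA, to the CCAAT box, to the octamer ATTTGCAT known from H2B promoters, and to the H1 box AAACACA known from H1 promoters. No matches of different motifs overlap in these windows, and all are read 5′ to 3′ on the gene's strand. All 4 genes lie on the + strand, H2bc12 at chr13:22035571-22035870, H2ac1 at chr13:23934187-23934486, H1f2 at chr13:23738557-23738856 and H2bc3 at chr13:23746484-23746783.
H2bc12: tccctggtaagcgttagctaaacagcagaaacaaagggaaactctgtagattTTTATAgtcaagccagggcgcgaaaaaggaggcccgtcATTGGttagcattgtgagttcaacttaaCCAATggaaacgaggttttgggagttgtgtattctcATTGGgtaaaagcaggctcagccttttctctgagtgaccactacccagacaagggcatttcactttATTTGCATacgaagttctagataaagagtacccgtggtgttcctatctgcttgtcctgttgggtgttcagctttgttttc
H2ac1: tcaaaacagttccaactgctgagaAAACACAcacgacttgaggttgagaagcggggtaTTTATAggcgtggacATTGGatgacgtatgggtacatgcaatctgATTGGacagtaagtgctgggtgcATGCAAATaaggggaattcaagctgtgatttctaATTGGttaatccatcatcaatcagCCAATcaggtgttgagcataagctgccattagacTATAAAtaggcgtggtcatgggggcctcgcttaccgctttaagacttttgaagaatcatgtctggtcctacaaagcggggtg
H1f2: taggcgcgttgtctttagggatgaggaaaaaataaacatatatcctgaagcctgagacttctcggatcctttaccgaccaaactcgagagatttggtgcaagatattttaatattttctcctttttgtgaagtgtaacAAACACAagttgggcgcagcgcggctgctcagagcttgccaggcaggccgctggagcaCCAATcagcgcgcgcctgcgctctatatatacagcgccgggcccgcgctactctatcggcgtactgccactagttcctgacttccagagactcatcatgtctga
H2bc3: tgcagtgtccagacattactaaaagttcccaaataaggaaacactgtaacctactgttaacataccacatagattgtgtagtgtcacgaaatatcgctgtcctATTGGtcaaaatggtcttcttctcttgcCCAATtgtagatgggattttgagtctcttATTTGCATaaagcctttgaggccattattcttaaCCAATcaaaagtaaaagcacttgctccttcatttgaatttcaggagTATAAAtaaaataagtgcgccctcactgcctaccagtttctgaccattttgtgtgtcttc

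The H2bc12 window held 3 CCAAT matches, at -160, -132 and -96 from the annotated start, a TATAAA match on the opposite strand at -198 and an octamer at -30. The H2bc3 window held 3 CCAAT matches at -147, -119 and -56, an octamer at -90 and TATAAA at -10. Both H2B windows thus held the same 3 kinds of match. A match is a description of the letters, not a binding site. The H2ac1 window held 4 CCAAT matches, an octamer at -124, AAACACA at -226 and TATAAA on each strand, and the H1f2 window held AAACACA at -112 and CCAAT at -54. Across the histone windows, CCAAT was present in 22 of 29 and in 37.4% of all 32851 windows of that length, TATAAA in 16 and 13.6%, the octamer in 8 and 1.74%, and AAACACA in 7 and 7.18%. By class, the octamer was found in 5 of 7 H2B, 3 of 6 H2A, 0 of 8 linker and 0 of 6 H4 windows, and AAACACA in 4 of 8 linker windows.

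Both called genes are 1 side of a divergent pair whose promoter windows lie on the same DNA. Of the 29 histone genes with a window, 9 were in such a pair, the 2 called genes included. H1f10, H2ac15, H2az1, H2bc22 and H4c8 were also among them, and none of these was called. H2bc12 shares 277 bases of window with H2ac12, with starts 178 bases apart, and H2ac1 shares 220 bases with H2bc1, with starts 281 bases apart. These are the 2 divergent pairs in which both genes were found by the symbol rule. The TATAAA match on the opposite strand of the H2bc12 window, and its octamer, are thus also inside the H2ac12 window. The octamer of the H2ac1 window is likewise inside the H2bc1 window. The counts by class above therefore include these octamers under both H2A and H2B. The partners were low on their own probe sets. H2ac12 read 0.92 and 1.06 on the siNF45 arrays, against 0.76 and 1.02 on the siNTC arrays (difference 0.10, 95% interval -0.24 to 0.44). H2bc1, also named Th2b, read 1.57 and 0.87 in siNF45, against 0.88 and 1.16 in siNTC (0.20, 95% interval -0.39 to 0.79). Both partners were under the signal level in all 4 arrays.

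The H4 genes found by the symbol rule gave no call. H4f16, an H4 gene whose symbol lies outside the rule, differed by -1.07 (limma adjusted p = 0.079) and is described below. H4c12 read 7.07 and 6.94 on the siNF45 arrays, against 7.45 and 7.18 on the siNTC arrays, without overlap (difference -0.31, SE 0.15, limma adjusted p = 0.349). H4c14 read 1.81 and 1.47 in siNF45, against 1.83 and 2.12 in siNTC (difference -0.34, SE 0.18, limma adjusted p = 0.394). H4c12 was at -0.175 without siNTC replicate 1, and H4c14 at -0.165 without siNF45 replicate 2, -0.19 without siNTC replicate 2 and -0.505 without siNF45 replicate 1. H4c1 and H4c9 had overlapping groups, with differences of 0.02 (95% interval -0.42 to 0.46) and -0.02 (-0.62 to 0.59), and H4c9 turned to 0.12 after centring and to 0.05 after quantile normalization. Of the H4 genes under the level, H4c17 read 1.39 and 0.91 in siNF45, against 1.50 and 1.80 in siNTC, and H4c2 read 1.55 and 1.75, against 1.19 and 1.20. These differed by -0.50 and 0.46, in opposite directions, with limma adjusted p of 0.386 and 0.250 in the fit without the level. H4 genes encode the same protein. How far single-symbol probe sets tell copies apart was not tested, for H4 genes or for the other classes, H2bc12 and H2ac1 included.

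Because replication-dependent histone genes are near-copies of each other, many probe sets are assigned to several of them. There were 42 such probe sets, of which 3 repeated the values of another exactly and were counted once, leaving 39, with 24 past the signal level. They were fitted together with all 20678 probe sets past that level, whatever their annotation, a fit chosen after the values were seen, in which 0 probe sets passed an adjusted p under 0.05, H2bc12 and H2ac1 included (limma adjusted p = 0.341 for both). At an unadjusted p under 0.05, 2 of the 24 shared probe sets were lower and 0 higher, where 7.59% of all probe sets in that fit were lower. The 24 had a median difference of -0.19, with 18 below 0 and 6 above, or 16 and 8 after centring. In 11 of the 24, both siNF45 arrays read below both siNTC arrays, where 26.9% of all probe sets in that fit did so. All probe sets in that fit had a median of -0.05.

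Shared H2A and H2B probe sets with high values had small differences. The H2A probe set assigned to the most genes, 12, read 9.53 and 9.52 on the siNF45 arrays, against 9.57 and 9.46 on the siNTC arrays (difference 0.01, SE 0.13). Another, assigned to 3 H2A genes, read 9.28 and 9.25 in siNF45, against 9.52 and 9.18 in siNTC. An H2B probe set assigned to 12 genes read 7.88 and 8.08 in siNF45, against 8.12 and 7.96 in siNTC (difference -0.06, SE 0.15), and one assigned to 4 read 8.24 and 8.35, against 8.72 and 8.26. In each of these 4 the groups overlapped. In 2 others, each assigned to 10 H2A genes, they did not. The first read 7.73 and 7.76 in siNF45, against 8.08 and 7.87 in siNTC (difference -0.23, SE 0.14), and the second read 7.03 and 6.97, against 7.21 and 7.14 (difference -0.18, SE 0.13). Over the 6 such probe sets with a mean of at least 7, a limit set after the values were seen, differences ran from -0.23 to 0.01, their 95% intervals reached no lower than -0.75 and no higher than 0.38, and the smallest unadjusted limma p was 0.181. An H2A probe set with lower values, assigned to 10 genes, read 2.19 and 1.69 in siNF45, against 2.64 and 2.64 in siNTC (difference -0.70, SE 0.21, limma adjusted p = 0.391). Such a probe set reads several copies together, so a difference in 1 copy cannot be told apart from the rest.

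The H3 genes could be read only through shared probe sets. Of 12, 4 were past the level. The one with the highest values, assigned to 8 H3 genes, read 5.21 and 5.13 on the siNF45 arrays, against 5.19 and 5.06 on the siNTC arrays, overlapping (difference 0.05, SE 0.13). The other 3 differed by -0.32, -0.20 and 0.06, and none of the 4 had an unadjusted p under 0.05. The H4 shared probe sets past the level, 2 of 5, differed by -0.15 and -0.19.

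**Figure D3:**
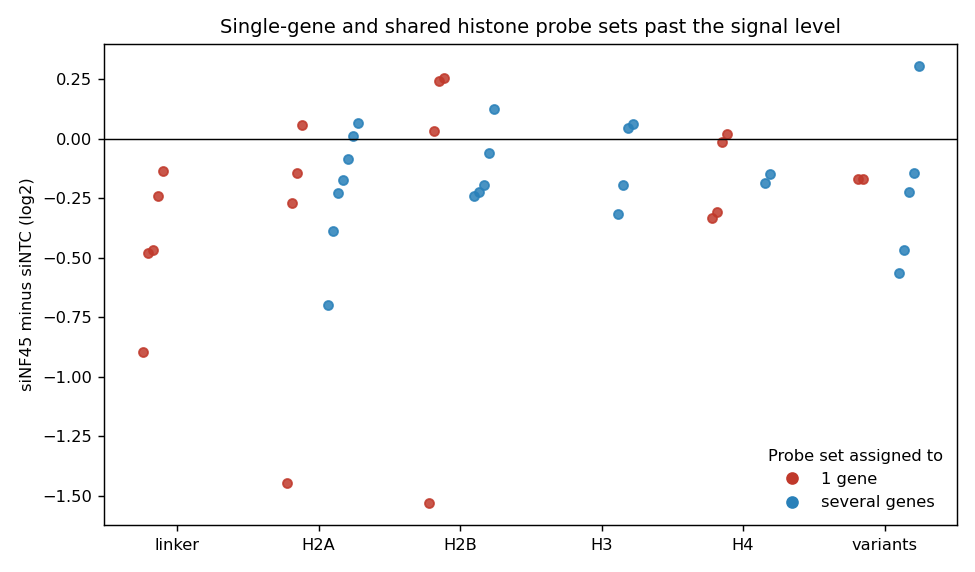
Difference siNF45 minus siNTC (log2) of histone probe sets past the signal level, by class. Probe sets assigned to 1 gene found by the symbol rule are in red, left of those assigned to several genes of 1 class in blue. Genes outside the symbol rule, such as H4f16 at -1.07, and 1 shared probe set assigned to genes of different classes are not shown. The lowest shared value is -0.70, while the single-gene probe sets of H2bc12 and H2ac1 lie at -1.53 and -1.45; linker histones have only single-gene probe sets and H3 only shared ones.

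The replication-independent variants H2az1 and H2az2, which encode the H2A variants placed at promoters, both differed by -0.17, with overlapping groups. H2az1 read 2.47 and 2.83 on the siNF45 arrays, against 2.85 and 2.79 on the siNTC arrays, and H2az2 read 5.57 and 5.09, against 5.44 and 5.56. Leaving out 1 siNF45 array turned each sign, to 0.01 for H2az1 and 0.07 for H2az2. The H3f family, which encodes the H3 variant deposited outside replication, was measured by 5 shared probe sets, all past the level. The 2 with high values read 7.90 and 7.80 in siNF45, against 8.57 and 8.07 in siNTC, and 7.56 and 7.42 in siNF45, against 8.20 and 7.91 in siNTC. Neither pair of groups overlapped, and the differences were -0.47 (SE 0.21, limma adjusted p = 0.487) and -0.57 (SE 0.17, limma adjusted p = 0.380). The other 3 differed by 0.31, with both siNF45 arrays above both siNTC arrays, and by -0.15 and -0.23. Of all probe sets past the level, 26.9% had both siNF45 arrays below both siNTC arrays, and 17% had them above.

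Histone genes outside the symbol rule were taken from a fixed list, of which 10 had a probe set and 7 were past the level, and 0 passed the test. Macroh2a1, which encodes the large H2A variant with a macro domain, read 5.98 and 6.07 on the siNF45 arrays, against 6.86 and 6.84 on the siNTC arrays (difference -0.83, SE 0.12, limma adjusted p = 0.079). H4f16 read 3.93 and 3.77 in siNF45, against 5.06 and 4.78 in siNTC (difference -1.07, SE 0.15, limma adjusted p = 0.079), while its second probe set, under the level, read 1.34 and 1.41 in siNF45, against 1.41 and 1.34 in siNTC. For both genes the groups were far apart compared with the replicates. Both passed with a variance trend (limma adjusted p = 0.013 for Macroh2a1 and 0.029 for H4f16) and at the 70th percentile filter (0.047 for each). H4f16 also passed after quantile normalization (0.045) and after centring (0.026). These settings called more genes in all than the main fit, which called 9 lower and 1 higher. The trend called 134 lower and 40 higher of 11742 genes, and the 70th percentile filter 70 and 17 of 7977. H2ax, the variant phosphorylated at DNA breaks, read 6.96 and 6.97, against 7.22 and 7.25 (difference -0.27, SE 0.12, limma adjusted p = 0.312). H2ab1, a short H2A variant known from testis, differed by 0.22 (SE 0.16), and its second probe set, under the level, by -0.23.

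Genes that make, carry or accompany histones were read from 3 more fixed lists. For histone RNA synthesis and 3′ end processing, 17 of 19 measured genes were past the level and 0 passed in either direction. Their median difference was -0.06 with 11 genes below 0, against -0.07 over all tested genes. It turned to 0.02 after quantile normalization and 0.08 after centring, where that of all tested genes was -0.02 and 0.07. The members with the smallest p were Cpsf3, the nuclease that cuts histone pre-mRNA, at 0.30 (SE 0.12), the scaffold Sympk at -0.30 (SE 0.14), Lsm10 of the U7 particle at 0.27 (SE 0.14) and the cap-binding Ncbp1 at -0.26 (SE 0.13). Slbp, which binds the histone stem-loop, read 5.94 and 5.75 in siNF45, against 6.11 and 6.01 in siNTC, without overlap (difference -0.22, SE 0.13, limma adjusted p = 0.457). It and Npat, the coactivator at histone loci, at -0.12 (SE 0.14), were chosen after their values were seen.

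Histone chaperones and deposition factors gave 0 calls among 23 tested genes. Their median difference was -0.14, with 17 below 0, where all tested genes had a median of -0.07 and 61.3% below 0. After centring it was -0.01 with 12 below 0, where all tested genes had a median of 0.07 and 39.5% below 0. At an unadjusted p under 0.05, 5 were lower and 0 higher, where 13.2% of all tested genes were lower and 4.02% higher. Chaf1a and Chaf1b, the large and middle subunits of the replication-coupled deposition factor CAF-1, differed by -0.56 (SE 0.14, limma adjusted p = 0.153) and -0.46 (SE 0.12, limma adjusted p = 0.170). Chaf1a read 3.44 and 3.56 in siNF45, against 4.17 and 3.94 in siNTC, and Chaf1b read 6.01 and 5.95, against 6.50 and 6.37, both without overlap. Ubn1, of the HIRA complex that deposits replication-independent histone, differed by -0.49 (SE 0.14), and the histone-binding Rbbp7 by -0.39 (SE 0.12).

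Of 24 tested S phase genes, 23 had differences below 0, where 61.3% of all tested genes did. After quantile normalization 21 did, where 52.9% of all tested genes did, and after centring 16 did, where 39.5% did. Their median was -0.20, or -0.13 after quantile normalization and -0.07 after centring, and 17 had both siNF45 arrays below both siNTC arrays, where 32.6% of all tested genes did so. None passed, and 4 were lower and 0 higher at an unadjusted p under 0.05, where 13.2% of all tested genes were lower. Ccne1, which encodes cyclin E, differed by -0.55 (SE 0.18, limma adjusted p = 0.225), the transcription factor E2f1 by -0.40 (SE 0.14), the helicase subunit Mcm5 by -0.36 (SE 0.13) and the origin factor Orc1 by -0.33 (SE 0.12). The summed log2 values of the 24 genes were 127.8 and 125.6 on the siNF45 arrays, against 132.2 and 131.0 on the siNTC arrays. The part of S phase genes, or of Sst and Ppy, in the histone values was not tested.

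**Figure D4:**
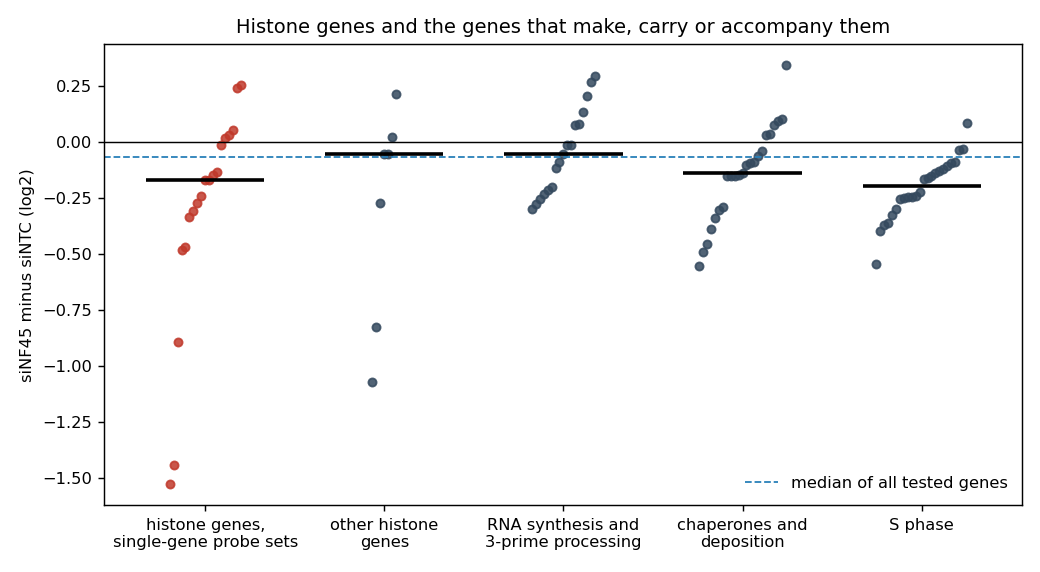
Difference siNF45 minus siNTC (log2) of every tested gene in each group, as points with the group median as a bar, and the median of all tested genes as a dashed line. The histone genes span -1.53 to 0.26, the S phase genes -0.55 to 0.09 with 23 of 24 below 0.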

How the data were processed

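Expression was measured in 4 samples, 2 siNF45 and 2 siNTC, on 1 array each. Per the labels, labelled DNA was made from total RNA with a whole-transcript kit, which does not select on poly(A) tails. The authors deposited 1 log2 value per probe set and array. The tool was Transcriptome Analysis Console, per the submitters' processing notes, and its version is not given in the sources used here. Base 2 was taken from the range of the values, 0.12 to 12.21. Array medians were 1.64 to 1.66. The platform annotation gives 1 gene symbol to 23521 of the 41345 probe sets and several to 1814, and leaves 16010 unnamed here. No probe sequence and no detection call was used, and the number of arrays limits the precision.

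For each gene with a mean over the 4 arrays of at least 1.65, the probe set with the highest mean was tested in R 4.3.3 by the moderated linear model of limma 3.58.1, with group as the only term (2 residual and 3.69 prior degrees of freedom), with Benjamini-Hochberg adjustment over 11742 genes at 0.05. The code was tested on simulated data. The histone genes and lists were chosen with earlier results of these data known. The text names Ilf2, every histone gene past the level, the 5 others with the largest difference, paralog partners, and the 4 genes of each list with the smallest p; further genes are given as values. All 31 histone genes matched RefSeq by gene number. Promoter windows came from RefSeq, GRCm38.p6. Alternatives were other filters, quantile normalization, centring, a variance trend, a robust prior, averaged probe sets, the replicate block, and leaving out each array.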

Additional observations from a re-analysis of the deposited data

How the results depend on the processing

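With 2 arrays per group, the calls of H2bc12 and H2ac1 were not stable to the setting, although both differences were below 0 in each alternative. Both were called after centring, with a trend, with robust eBayes, with averaged probe sets, after quantile normalization, at a filter set to the 70th percentile and at an adjusted p under 0.10. Over all genes, the trend called 134 lower and 40 higher, and the 70th percentile filter 70 and 17. Without a filter 1 was called, H2bc12. Leaving out 1 array leaves a lone array in a group, assumed to vary like the other group. Calls were not read from those fits. The fit over all probe sets past the level, chosen after seeing the data, called 0. An unadjusted p under 0.05 was reached by 5, all lower. The fit with the replicate block called 0 histone genes, and 0 of all 11742 tested genes. H2bc12 was at -1.53 and H2ac1 at -1.45 there, with a limma adjusted p of 0.258 for both and for Ilf2. The deviations of same-numbered arrays correlated at 0.0062 over genes, so the numbers were not taken to pair the arrays. The median over tested histone genes, -0.17, was -0.045 over all 31 without a filter, -0.29 at the 70th percentile filter and -0.04 after centring. Without a filter the medians were -0.19 for linker, -0.055 for H2A and -0.015 for H4 genes. At the 70th percentile filter the H2B median was 0.03 over 3 genes, and the only H4 gene left was H4c12, at -0.31. After centring they were -0.0775 for H2A, 0.265 for H2B and -0.04 for the variants, which were at -0.11 after quantile normalization. Leaving out each array put the H2B median between 0.0375 (without siNF45 replicate 2) and 0.1825, and the median over tested histone genes between -0.25 and -0.18. Of 221 alternative values of histone genes, 12 turned sign, all of genes that were not called. Leaving out each array gave a range of -0.33 to 0.04 for H2ac10, -0.04 to 0.15 for H2ac20, -0.35 to 0.01 for H2az1, -0.41 to 0.07 for H2az2, -0.04 to 0.10 for H2bc18, with -0.02 without siNTC replicate 1, -0.18 to 0.22 for H4c1, with -0.09 without siNF45 replicate 2, and -0.32 to 0.29 for H4c9, with 0.175 without siNF45 replicate 1. H4c9 was also at 0.045 after quantile normalization and 0.115 after centring.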
